A study of Callithrix jacchus with 4 samples.

Results

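Genes of MHC class I antigen presentation were followed in RNA-seq data of the frontal cortex of adult marmosets, small monkeys of South America. They were chosen by symbol, and there were 8: B2M, the transporter genes TAP1 and TAP2, the tapasin gene TAPBP, the immunoproteasome genes PSMB8, PSMB9 and PSMB10, and the regulator gene NLRC5. All 8 were found among the 35108 genes of the count table, and all 8 passed the filter on low counts that left 16385 genes for testing. The 2 wild-type libraries (wild type 1 and 2) come from adult animals whose sex is not labelled. The 2 transgenic libraries (transgenic 1 and 2) come from adult females that carry mutant APP (amyloid precursor protein) transgenes under the human EF1α promoter, a promoter active in most cell types. The mutation, the founder line of each animal and any condition that the groups share beyond tissue and age were not given in the sources used here. The comparison asks how transgenic cortex differs from wild type.

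MHC class I molecules show peptides of the cell's own proteins to cytotoxic T cells. The proteasome cuts proteins in the cytosol, the TAP1-TAP2 pump carries the peptides into the endoplasmic reticulum, and tapasin holds an empty class I molecule at the pump until a peptide fits. A class I molecule pairs a heavy chain with β2-microglobulin, the product of B2M. Interferon-γ makes cells replace the catalytic proteasome subunits PSMB6, PSMB7 and PSMB5 by PSMB9, PSMB10 and PSMB8, which gives the immunoproteasome. NLRC5 is the transactivator of class I genes, as CIITA is of class II genes. In healthy brain, class I levels are low, and endothelium and microglia are among the cells that carry them.

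The libraries held 12657323 to 18932180 counts, the most in transgenic 2. The levels below are CPM values, the count of a gene scaled to a library size corrected by the TMM method. They are not corrected for gene length, so levels are compared between libraries and not between genes. Levels below 0.17 to 0.23 CPM, the worth of 3 counts, are not distinguishable from absence. APP was at 1822 and 2182 CPM in the wild-type pair, against 2143 and 2748 CPM in transgenic 1 and 2. Counts of the Y-linked gene KDM5D were 2 (wild type 1), 243 (wild type 2) and 0 (each transgenic library). The wild-type pair was thus 2 different animals, and sex cannot be fully told apart from genotype. For the transgenic pair the labels do not say that the libraries are separate animals. P-values measure the spread between these libraries, which may be technical in the transgenic pair. Transgenic 2 stood apart from the other 3 libraries: without transgenic 1, edgeR called 1710 genes, and without transgenic 2 it called 3. Each result below is therefore given by library.

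Higher levels of the 8 genes were a feature of transgenic 2. With TMM scaling all 8 were above both wild-type libraries in transgenic 2, where 39.9% of all genes tested were, and all 8 were highest in that library of the 4, where 35.1% of all genes were. PSMB10 was so by less than its counting error, and it lay below both wild-type libraries when library totals were used without scaling. In transgenic 1, 2 of the 8 were above both wild-type libraries (TAP1 and PSMB9) and 3 were below both (B2M, PSMB8 and PSMB10), where 34.4% of all genes were above and 34% below. Over the 8 genes the deviation from the wild-type mean (log2 CPM) had a median of -0.08 in transgenic 1 and 1.76 in transgenic 2, against -0.0054 over all genes tested in transgenic 2.

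Across both groups 7 of the 8 genes had a fitted log2 fold change above 0, where 49.6% of all genes did, and the median was 1.22 against -0.0022 over all genes. None of the 8 passed edgeR's quasi-likelihood test at an adjusted p of 0.05, and the share of all genes called was 0%, with 921 genes at an unadjusted p under 0.05. Their adjusted p lay between 0.79 and 0.87. At an unadjusted p under 0.05, PSMB9 was the 1 gene of the 8, where 3.23% of all genes were higher by that rule. DESeq2 called 0 of the 8 and 0.293% of all genes, and limma-voom called 0 of the 8 and 0% of all genes. Without transgenic 2 the median was -0.087, with 2 genes higher and 6 lower in sign.

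**Figure D1:**
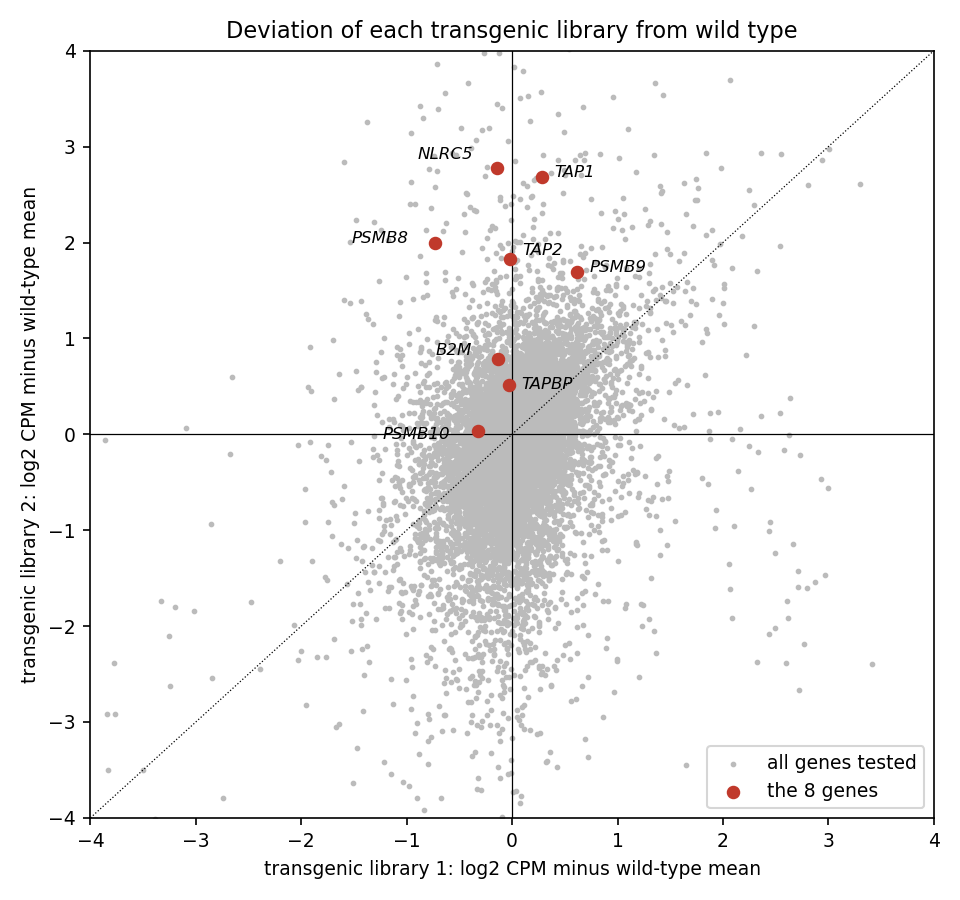
Deviation of each gene from the wild-type mean (log2 CPM) in transgenic 1 (horizontal axis) and transgenic 2 (vertical axis), with 16349 of the 16385 genes tested in grey, the 36 beyond 4 left out of view, and the 8 class I genes in red. The red points lie between -0.73 (PSMB8) and 0.61 (PSMB9) on the horizontal axis and between 0.035 and 2.78 on the vertical axis.

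A fit without transgenic 1 sets transgenic 2 against the wild-type pair. It assumes that the lone library varies as the wild-type libraries do, so it describes that library and not the genotype. In that fit 5 of the 8 genes were called, all higher (NLRC5, TAP1, PSMB8, TAP2 and B2M), where 9.92% of all genes were called in either direction and 4.52% as higher. TAPBP (adjusted p = 0.055, edgeR) and PSMB9 (adjusted p = 0.065, edgeR) missed the threshold, and PSMB10 had an adjusted p of 0.93. The fit without transgenic 2 called 0 of the 8 and 0.0175% of all genes.

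The peptide transporter genes were among those with the largest deviation. TAP1, which encodes the first of the pump's paired chains, was at 8.20 and 5.63 CPM in wild type, at 8.30 CPM in transgenic 1 and at 44.4 CPM in transgenic 2. Transgenic 1 lay above wild type 1 by less than the counting error, so the groups were apart only in that narrow sense, and transgenic 2 stood alone at 6.41-fold the wild-type mean. Both transgenic libraries were above both wild-type libraries in 2 of the 8 genes (TAP1 and PSMB9), where 19.5% of all genes were. The fitted log2 fold change of TAP1 was 1.93 ± 0.78 (SE, n = 2 per group; edgeR adjusted p = 0.79). It was 0.26 without transgenic 2 and 2.68 without transgenic 1 (edgeR adjusted p = 0.00075). Of all genes tested, 0.543% deviated upward in transgenic 2 by as much as TAP1 or more.

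TAP2, the partner chain of the pump, was at 6.81 and 6.07 CPM in wild type, at 6.32 CPM in transgenic 1 and at 23.2 CPM in transgenic 2. Transgenic 1 was within the wild-type range, and transgenic 2 was at 3.60-fold the wild-type mean. EdgeR fitted a log2 fold change of 1.20 ± 0.61 (SE, n = 2 per group; edgeR adjusted p = 0.79), -0.030 without transgenic 2, and 1.85 without transgenic 1 (edgeR adjusted p = 0.0023). The partners did not keep a constant count ratio. TAP1 made up 54.6% (95% exact binomial interval 47.4 to 61.8%) and 48.1% (40.2 to 56.2%) of the TAP1 and TAP2 counts in wild type, 56.8% (49.6 to 63.8%) in transgenic 1 and 65.7% (62.9 to 68.3%) in transgenic 2. The interval of transgenic 2 lies above those of both wild-type libraries and overlaps that of transgenic 1. Such intervals cover counting error only, and this pair, like the others below that are not subunit counterparts, was chosen after the values were seen.

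The genes for tapasin and β2-microglobulin had smaller deviations in transgenic 2. TAPBP was at 79.3 and 85.1 CPM in wild type, at 80.5 CPM in transgenic 1 and at 117 CPM in transgenic 2. Between the wild-type values lay transgenic 1, while transgenic 2 was at 1.43-fold the wild-type mean. For TAPBP the fit gave a log2 fold change of 0.27 ± 0.21 (SE, n = 2 per group; edgeR adjusted p = 0.80), and -0.033 without transgenic 2. As many as 13% of all genes deviated upward in transgenic 2 by at least as much as TAPBP.

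B2M, the invariant light chain of every class I molecule, was at 157 and 140 CPM in wild type, at 135 CPM in transgenic 1 and at 256 CPM in transgenic 2. Transgenic 1 was the lowest library and transgenic 2 the highest, at 1.73-fold the wild-type mean. The fitted log2 fold change was 0.40 ± 0.31 (SE, n = 2 per group; edgeR adjusted p = 0.80). Its sign turned without transgenic 2, to -0.14, and without transgenic 1 it was 0.79 (edgeR adjusted p = 0.015).

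The 1 class I heavy chain gene with a symbol in the table, CAJA-E (the marmoset gene named after human HLA-E), was at 20.7 and 17.1 CPM in wild type, at 16.9 CPM in transgenic 1 and at 70.3 CPM in transgenic 2. Its pattern over the libraries was that of the loading genes, with transgenic 2 at 3.71-fold the wild-type mean. For CAJA-E the fit gave 1.21 ± 0.64 on the log2 scale (SE, n = 2 per group; edgeR adjusted p = 0.79), -0.17 without transgenic 2 and 1.89 without transgenic 1 (edgeR adjusted p = 0.00088). Reads may be shared out between similar class I genes of the marmoset, and those listed under a LOC identifier were not analysed here. CAJA-E deviated more than its light chain: its counts were 11.7%, 10.9% and 11.1% of the summed CAJA-E and B2M counts in wild type 1, wild type 2 and transgenic 1, and 21.5% (95% exact binomial interval 20.5 to 22.6%) in transgenic 2.

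Other proteins that pair with β2-microglobulin did not follow this pattern. HFE, which acts in iron sensing, was at 4.33 and 4.53 CPM in the wild-type pair, against 8.60 and 8.20 CPM in transgenic 1 and 2. The transgenic libraries were at 1.94-fold and 1.85-fold the wild-type mean (log2 0.92 ± 0.25 SE, n = 2 per group; edgeR adjusted p = 0.79), and the log2 fold change was 0.95 without transgenic 2. Of the 3 genes tested in this list, HFE alone had an unadjusted p under 0.05 in edgeR, and DESeq2 and limma-voom called 0. FCGRT, the neonatal Fc receptor gene, was at 29.7 and 38.6 CPM in wild type, at 28.0 CPM in transgenic 1 and at 17.3 CPM in transgenic 2, the lowest, and was called lower without transgenic 1 (log2 -0.98; edgeR adjusted p = 0.035). MR1, which presents vitamin metabolites, was at 0.46 and 1.46 CPM in the wild-type pair, against 1.84 and 1.33 CPM in transgenic 1 and 2, where the groups overlap.

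**Figure D2:**
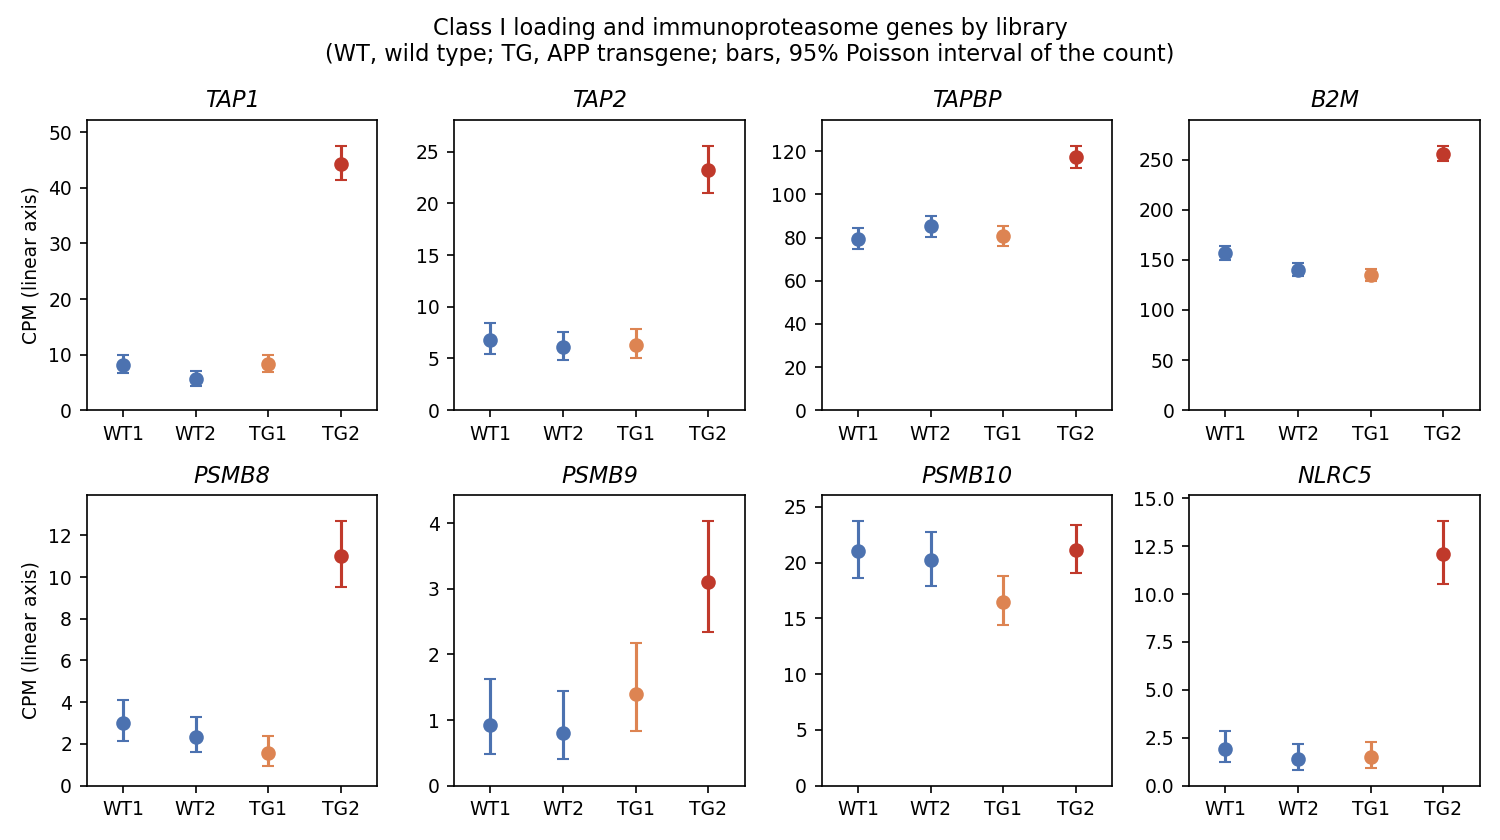
CPM of each of the 8 genes in the 4 libraries (WT, wild type; TG, transgenic), on linear axes that start at 0, with the 95% exact Poisson interval of the count as bars. In 7 panels the interval of transgenic 2 lies above those of both wild-type libraries, and for PSMB10 it overlaps them.

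Of the 3 immunoproteasome subunit genes, 2 were higher in transgenic 2. PSMB8, which encodes the β5i subunit, was at 3.02 and 2.34 CPM in wild type, at 1.54 CPM in transgenic 1 and at 11.0 CPM in transgenic 2. The transgenic libraries lay on opposite sides of wild type, at 0.576-fold and 4.11-fold of its mean. The fitted log2 fold change of 1.24 ± 0.88 (SE, n = 2 per group; edgeR adjusted p = 0.80) therefore averaged unlike libraries. In transgenic 1, 96.9% of all genes deviated at least as far upward as PSMB8. Its fold change was -0.79 on the log2 scale without transgenic 2 and 2.04 without transgenic 1 (edgeR adjusted p = 0.0064).

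PSMB9, the β1i subunit gene, was at 0.93 and 0.80 CPM in wild type, at 1.40 CPM in transgenic 1 and at 3.10 CPM in transgenic 2. These levels rest on 12, 11, 19 and 56 counts. Both transgenic libraries were above both wild-type libraries, and the 95% exact Poisson intervals of transgenic 1 (0.84 to 2.18 CPM) and wild type 1 (0.48 to 1.62 CPM) overlapped. The fitted log2 fold change was 1.38 ± 0.54 (SE, n = 2 per group; edgeR unadjusted p = 0.047, adjusted p = 0.79), and 0.68 without transgenic 2. In transgenic 1, 4.92% of all genes deviated upward by at least as much as PSMB9.

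PSMB10, the β2i subunit gene, was at 21.0 and 20.3 CPM in wild type, at 16.5 CPM in transgenic 1 and at 21.2 CPM in transgenic 2. Transgenic 2 was at the wild-type level and transgenic 1 was the lowest library. For PSMB10 the fit gave a log2 fold change of -0.13 ± 0.20 (SE, n = 2 per group; edgeR adjusted p = 0.87), and 0.034 without transgenic 1. In transgenic 2, 46.5% of all genes deviated upward by at least as much as PSMB10, against 1.06% for PSMB8 and 1.42% for PSMB9. PSMB8 made up 12.5% and 10.4% of the PSMB8 and PSMB10 counts in wild type, 8.57% in transgenic 1 and 34.3% (95% exact binomial interval 30.4 to 38.3%) in transgenic 2.

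The constitutive subunits that the inducible ones replace differed little between the libraries. PSMB5, the counterpart of PSMB8, was at 68.2 and 60.7 CPM in the wild-type pair, against 60.0 and 68.1 CPM in transgenic 1 and 2. PSMB6, the counterpart of PSMB9, was at 62.0 and 63.5 CPM in the wild-type pair, against 55.9 and 77.5 CPM in transgenic 1 and 2. PSMB7, the counterpart of PSMB10, was at 92.9 and 84.6 CPM, against 82.1 and 95.8 CPM. Transgenic 2 was the highest library for PSMB6 and PSMB7, and the adjusted p of the 3 genes lay between 0.91 and 0.9971 in edgeR.

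The count ratio of an inducible to its constitutive subunit within a library needs no scaling between libraries. For PSMB8 to PSMB5 it was 4.42% and 3.86% in wild type, 2.57% in transgenic 1 and 16.2% in transgenic 2. Transgenic 1 was thus at 0.623-fold and transgenic 2 at 3.92-fold the wild-type ratio. For PSMB9 to PSMB6 it was 1.498% and 1.27% in wild type, 2.5% in transgenic 1 and 4.003% in transgenic 2, so that both transgenic libraries were above wild type. For PSMB10 to PSMB7 it was 22.6% and 23.9% in wild type and 20.1% and 22.1% in transgenic 1 and 2, both below wild type. On the log2 scale the mean ratios differed by 0.64 (PSMB8 to PSMB5: -4.60 ± 0.14 in wild type and -3.95 ± 1.88 in transgenic cortex, SD, n = 2), by 1.20 (PSMB9 to PSMB6: -6.18 ± 0.17 and -4.98 ± 0.48, SD, n = 2) and by -0.15 (PSMB10 to PSMB7: -2.10 ± 0.057 and -2.25 ± 0.098, SD, n = 2). No test is reported for these ratios, since the smallest two-sided p of an exact permutation test with 2 libraries per group is 0.33.

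**Figure D3:**
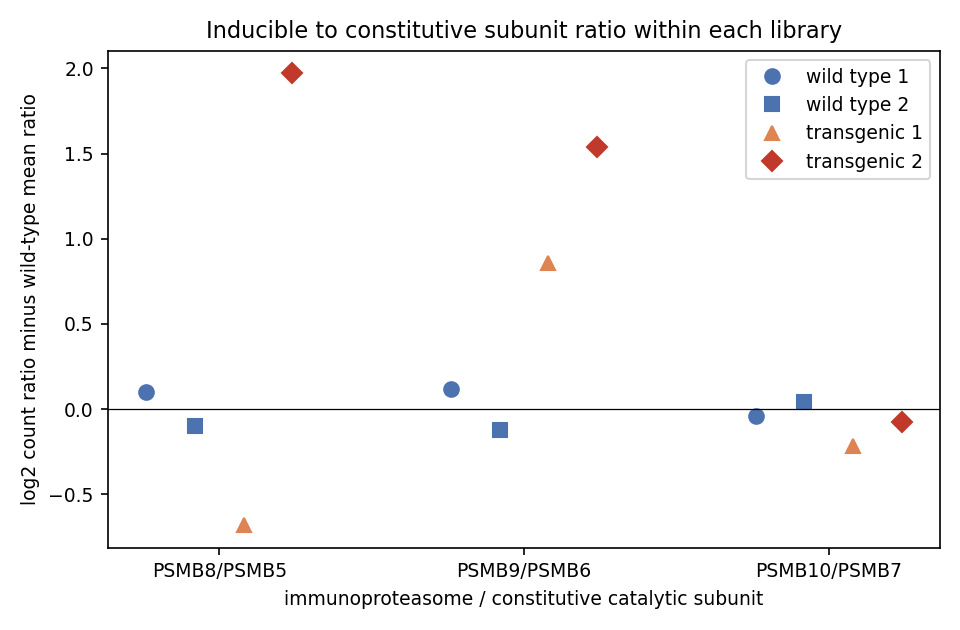
Log2 ratio of inducible to constitutive catalytic subunit counts within each library, less the mean ratio of the wild-type libraries, for the 3 subunit pairs. Transgenic 2 is at 1.97 and 1.54 for PSMB8/PSMB5 and PSMB9/PSMB6 and at -0.077 for PSMB10/PSMB7, and transgenic 1 is at -0.68, 0.86 and -0.22.

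NLRC5, the class I transactivator gene, had the largest deviation of the 8 genes in transgenic 2. It was at 1.93 and 1.39 CPM in wild type, at 1.47 CPM in transgenic 1 and at 12.1 CPM in transgenic 2. The level of transgenic 1 was inside the wild-type range, and transgenic 2 was at 7.26-fold the wild-type mean, a deviation that 0.482% of all genes tested matched or exceeded. The counts behind these levels were 25, 19, 20 and 218. In the fit its log2 fold change was 2.03 ± 0.96 (SE, n = 2 per group; edgeR adjusted p = 0.79), -0.18 without transgenic 2 and 2.86 without transgenic 1 (edgeR adjusted p = 0.0020).

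CIITA, the related transactivator of class II genes, had 0 and 1 counts in wild type, 3 in transgenic 1 and 41 in transgenic 2, and did not pass the filter on low counts. The factors that NLRC5 and CIITA act with on the promoter did not share this pattern: RFX5, which binds the X box, was at 35.9 and 37.5 CPM in the wild-type pair, against 40.8 and 40.4 CPM in transgenic 1 and 2. RFXANK, its partner, was at 8.36 and 6.87 CPM in the wild-type pair, against 5.29 and 5.04 CPM in transgenic 1 and 2, below wild type in both (log2 -0.56 ± 0.27 SE, n = 2 per group; edgeR adjusted p = 0.79). IRF1, the interferon-induced factor that binds class I promoters, was at 3.095 and 3.22 CPM in wild type, at 3.45 CPM in transgenic 1 and at 111 CPM in transgenic 2. That is 35.3-fold the wild-type mean in transgenic 2, and IRF1 passed without transgenic 1 (edgeR adjusted p = 1.04e-05) but not with all libraries (log2 4.19 ± 1.51 SE, n = 2 per group; edgeR adjusted p = 0.79).

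The list of 14 transactivators and promoter factors had 13 genes tested, of which 7 were above 0 and 6 below; the median log2 fold change was 0.055 and 0 were called by edgeR, DESeq2 or limma-voom. IRF1 alone had an unadjusted p under 0.05 in edgeR. CIITA met the filter's minimum (0.74 CPM) only in transgenic 2. Over the 13 genes that met it in both wild-type libraries, 3 were called higher without transgenic 1, among them IRF1 and NFKB1, where 4.37% of all genes meeting it were (a count added after seeing the data), and the median over the 13 was -0.093. The median deviation of the list was 0.086 in transgenic 1 and -0.090 in transgenic 2, so that a few members were far above wild type in transgenic 2 and most were not.

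By list median, genes that act before and after the peptide pump were nearer to wild type than the 8. The list of endoplasmic reticulum folding and peptide trimming had 8 of 10 genes above 0, a median log2 fold change of 0.15 and 0 called by edgeR, also without transgenic 1. No gene of this list, of the constitutive proteasome list or of the peptidase list had an unadjusted p under 0.05 in edgeR, and DESeq2 and limma-voom called 0 in each. CALR, the chaperone of the loading complex, was at 273 and 330 CPM in the wild-type pair, against 316 and 334 CPM in transgenic 1 and 2, and PDIA3, its thiol oxidoreductase partner, at 121 and 139 CPM, against 128 and 168 CPM. The trimming peptidase gene ERAP1 was at 18.4 and 14.4 CPM in the wild-type pair, against 14.1 and 14.5 CPM in transgenic 1 and 2. ERAP2, its relative, was at 1.24 and 0.59 CPM in the wild-type pair, against 1.47 and 1.49 CPM in transgenic 1 and 2, on 8 to 27 counts. TAPBPL, the gene for the tapasin-related peptide editor TAPBPR, was at 1.08 and 1.02 CPM in the wild-type pair. It was at 1.18 and 1.05 CPM in transgenic 1 and 2, on 14 to 19 counts. That is too few to tell whether it deviated as TAPBP did. SEC61A1, a channel subunit, was at 67.9 and 66.0 CPM, against 76.1 and 83.0 CPM. The intramembrane protease gene SPPL3 was at 56.8 and 64.4 CPM, against 69.8 and 68.9 CPM. They were among 4 of the 10 genes with both transgenic libraries above both wild-type libraries, where 19.5% of all genes were. SEC61A1 and SPPL3 were named because their p was among the smallest of the list.

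Of the 12 constitutive β subunits, activators and the assembly factor POMP, 9 were above 0 and 3 below, the median log2 fold change was 0.049 and edgeR called 0. Without transgenic 2 the median was -0.12. PSME1 and PSME2 encode the paired subunits of the PA28 activator, which interferon-γ also induces. PSME1 was at 23.2 and 21.7 CPM in wild type, at 25.4 CPM in transgenic 1 and at 39.3 CPM in transgenic 2 (log2 0.53 ± 0.25 SE, n = 2 per group; edgeR adjusted p = 0.79). PSME2 was at 15.7 and 16.2 CPM in wild type, at 17.6 CPM in transgenic 1 and at 28.7 CPM in transgenic 2 (log2 0.54 ± 0.28 SE, n = 2 per group; edgeR adjusted p = 0.79). They were the 2 of the 12 genes with both transgenic libraries above both wild-type libraries, where 19.5% of all genes were. The pair kept nearly the same count ratio, with PSME1 at 57.3 to 59.6% of its counts in the 4 libraries. Without transgenic 1 the log2 fold change was 0.80 for PSME1 and 0.85 for PSME2, where the list median was 0.16. In the same fit it was 0.79 for B2M and 0.51 for TAPBP, so PSME1 and PSME2 were not nearer to wild type than these. PSMB3, a structural β subunit, was at 42.1 and 46.1 CPM in the wild-type pair, against 40.4 and 58.3 CPM in transgenic 1 and 2.

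The cytosolic peptidases that trim or destroy peptides after the proteasome had 4 of 7 genes higher in sign, a median of 0.0091 (-0.059 without transgenic 2) and 0 called by edgeR, also without transgenic 1. DPP3 was at 15.2 and 14.7 CPM in the wild-type pair, against 12.7 and 13.5 CPM in transgenic 1 and 2, BLMH at 40.5 and 43.8 CPM, against 42.3 and 36.7 CPM, and NPEPPS at 211 and 215 CPM, against 217 and 231 CPM.

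**Figure D4:**
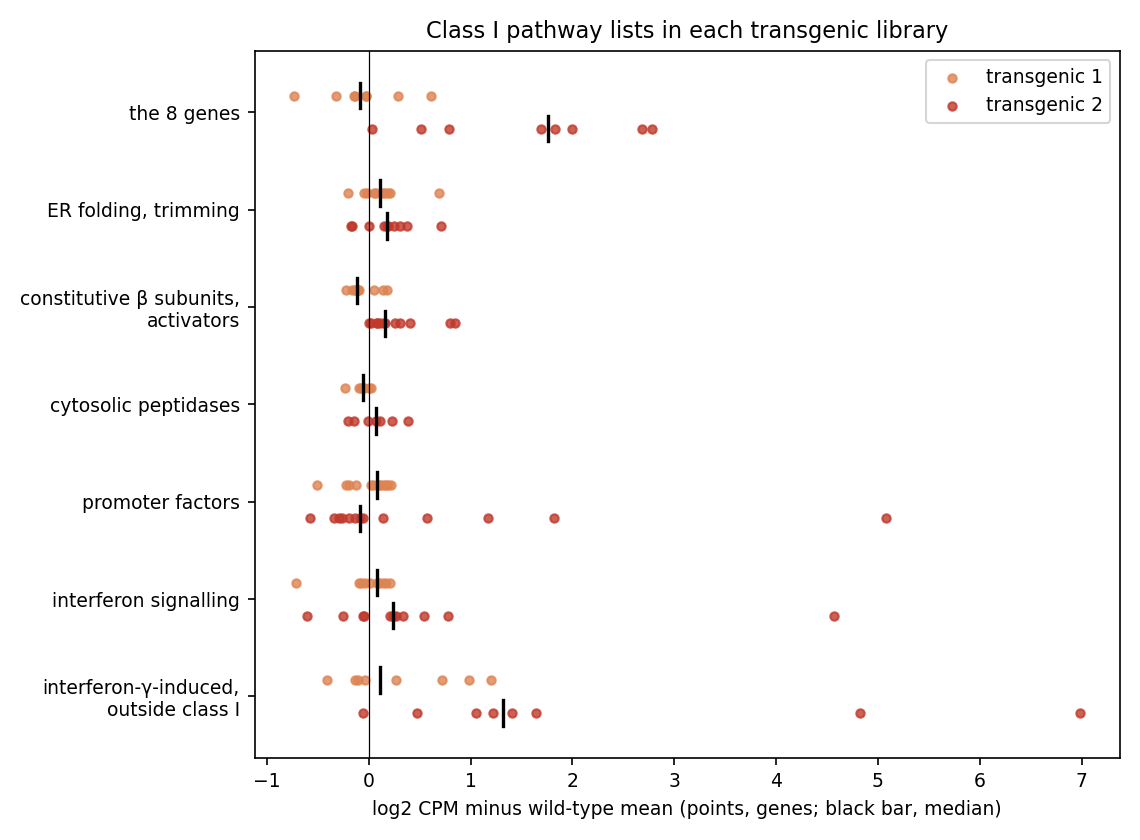
Deviation from the wild-type mean (log2 CPM) of each gene tested in the 8 class I genes and 6 lists of the pathway, for transgenic 1 and transgenic 2, with the list median as a black bar. The median of the 8 genes is -0.08 in transgenic 1 and 1.76 in transgenic 2, and that of interferon-γ-induced genes outside class I is 0.11 and 1.31.

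Interferon-γ-induced genes outside the class I pathway were also higher in transgenic 2. Of 18 entries 13 were in the table and 8 passed the filter, of which 7 were above 0; the median log2 fold change was 0.82 and edgeR called 0. At an unadjusted p under 0.05 there were 3 in edgeR (CD74, ICAM1 and GBP5), where 3.23% of all genes were higher by that rule. DESeq2 called 1 (CD74), where it called 0.293% of all genes, and limma-voom called 0. Their median deviation was 0.11 in transgenic 1 and 1.31 in transgenic 2. Of the 8, ICAM1 passed the filter only through the transgenic libraries, and the counts and medians given for the 8 include it. Over the 7 genes that met the filter's minimum in both wild-type libraries, 5 were called higher without transgenic 1, against the same 4.37% of all genes meeting it. IDO1, CXCL9, CXCL10, CXCL11, ICAM1 and CD274 did not meet it and are not counted. Without transgenic 2 the median was 0.11, with 4 of 8 higher in sign. GBP5, a guanylate-binding protein gene, was at 3.48 and 2.49 CPM in wild type, at 4.92 CPM in transgenic 1 and at 87.1 CPM in transgenic 2. ICAM1, the adhesion receptor of leukocytes, had 9 and 7 counts in wild type, 18 in transgenic 1 and 1685 in transgenic 2. CD74, the class II invariant chain gene, was at 8.90 and 11.04 CPM in the wild-type pair, against 23.0 and 31.3 CPM in transgenic 1 and 2, so that its deviation was 1.20 in transgenic 1 and 1.65 in transgenic 2. The chemokine genes CXCL9, CXCL10 and CXCL11, named here after their values were seen, had 0 to 4 counts in each of the other 3 libraries and 456, 2551 and 1861 counts in transgenic 2.

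Not every gene linked to interferon was high in that library. IFNG itself was listed at 0 in all 4 libraries, which allows up to 0.17 to 0.23 CPM. Of 15 entries for interferon receptors and signalling, 11 were tested; 7 were above 0 and 4 below, the median log2 fold change was 0.17 (0.081 without transgenic 2) and edgeR, DESeq2 and limma-voom called 0. SOCS3, a feedback inhibitor, was at 1.31 and 1.32 CPM in wild type. It was at 1.40 CPM in transgenic 1 and at 34.4 CPM in transgenic 2. Its log2 fold change was 4.70 without transgenic 1 and 0.082 without transgenic 2. Of the 11 genes it alone had an unadjusted p under 0.05 in edgeR, where 3.23% of all genes were higher by that rule. The phosphatase gene PTPN2 was at 15.9 and 13.6 CPM in the wild-type pair, against 17.1 and 25.3 CPM in transgenic 1 and 2, and PIAS1 at 114 and 123 CPM, against 133 and 143 CPM. USP18 and STAT2, also of these 11, were not high in transgenic 2. USP18 was at 0.93 and 1.46 CPM in the wild-type pair, against 0.66 and 0.72 CPM in transgenic 1 and 2, on 9 to 20 counts. STAT2 was at 40.5 and 42.4 CPM, against 38.8 and 40.2 CPM. Both were named after their values were seen, and 2 genes do not describe a whole response. Of the 11 genes, 7 were above both wild-type libraries in transgenic 2 and 4 below both. Over all genes the shares were 39.9% and 41.2%.

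By gene order in the RefSeq table of the marmoset assembly calJac240_pri (the authors may have used another), TAP2, PSMB8, TAP1 and PSMB9 are consecutive protein-coding genes and the class II gene CAJA-DMB follows PSMB9. In this row of genes transgenic 2 was the highest library throughout, while transgenic 1 was above both wild-type libraries for TAP1, PSMB9 and CAJA-DMB and not for TAP2 or PSMB8. CAJA-DMB, which encodes a chain of the class II peptide editor DM, had 12 counts in each wild-type library, 25 in transgenic 1 and 51 in transgenic 2. TAP1 and PSMB9 share a promoter region in humans. PSMB9 was 10.2% and 12.5% of the pair's counts in wild type, 14.4% in transgenic 1 and 6.53% (95% exact binomial interval 4.97 to 8.40%) in transgenic 2, whose interval overlaps those of both wild-type libraries (5.37 to 17.1% and 6.41 to 21.3%) and not that of transgenic 1 (8.89 to 21.6%). No source used here says whether counting used strand, and overlapping genes may share reads. In that assembly PATL2 overlaps B2M and had 2 to 19 counts per library, and LOC118153114 overlaps TAPBP and had 6 to 12. LOC103792383 overlaps PSMB9, which rests on few counts, and was not analysed here.

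The genes whose pattern over the 4 libraries was most like the mean of the 8 were TFPI, ABHD1, RBM3, TMEM154 and SPATA13. Likeness was the Euclidean distance between log2 CPM profiles centred on their means, over 4 libraries and 13013 candidate genes, and was 0.096 to 0.16 for these 5. RBM3, a cold-induced RNA-binding protein gene, was at 65.5 and 54.0 CPM in wild type, at 59.3 CPM in transgenic 1 and at 157 CPM in transgenic 2. TFPI, an inhibitor of coagulation, had 26 and 22 counts in wild type, 22 in transgenic 1 and 94 in transgenic 2. With 4 libraries, such a profile says little more than that transgenic 2 is high.

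Markers of several cell types also differed between the libraries, and not all in transgenic 2 alone. The summed level of 12 microglial markers was 226 and 265 CPM in the wild-type pair, against 143 and 125 CPM in transgenic 1 and 2, and 11 of the 12 were lower in sign, with a median deviation of -0.86 in transgenic 1 and -0.98 in transgenic 2. In transgenic 2, 8 of the 12 were below both wild-type libraries, where 41.2% of all genes were. CD68 was above both there, at 15.8 CPM against 8.28 and 12.4 CPM. C1QC and ITGAM were at 1.19-fold and 1.07-fold the wild-type mean. The homeostatic microglial gene TMEM119 deviated furthest, with 3 counts in transgenic 2, against 112 and 206 in wild type. The 10 endothelial markers summed to 423 and 309 CPM in wild type, against 275 and 239 CPM in transgenic 1 and 2. Of the 10, 8 were lower in sign, with a median deviation of -0.50 in transgenic 1 and -0.32 in transgenic 2. They were split in transgenic 2, where 6 were below both wild-type libraries and 3 (ERG, CDH5 and TIE1) were above both. Over all genes the shares were 41.2% below and 39.9% above. ERG was at 2.15-fold and CDH5 at 1.74-fold the wild-type mean there. Astrocyte markers (8 genes) summed to 8169 and 6807 CPM in wild type, 7338 CPM in transgenic 1 and 2582 CPM in transgenic 2. SLC1A2, with a large part of that sum, was at 4921, 4173, 4337 and 999 CPM. Oligodendrocyte markers (8 genes) summed to 3234, 2530, 3147 and 1156 CPM. In each of these lists 7 of 8 were below both wild-type libraries in transgenic 2. The exceptions, GFAP (635 CPM, against 695 and 517 CPM in wild type) and MAG (67.4 CPM, against 90.1 and 62.7 CPM), were within the wild-type range. Neuronal markers (8 genes) summed to 9887, 10165, 9495 and 11346 CPM. In transgenic 2, 5 of these 8 were above both wild-type libraries and 3 (SNAP25, RBFOX3 and NEFL) were below both. Over all genes the shares were 39.9% and 41.2%. SYT1, with a large part of the sum, was at 2037, 2460, 2634 and 3652 CPM.

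Among 12 T and NK cell markers, 11 were in the table and 3 were tested. Of those tested, CD2 had 40, 66, 28 and 119 counts in wild type 1 and 2 and transgenic 1 and 2. CD8A had 15, 11, 25 and 16 and CD4 had 5, 13, 27 and 8, both highest in transgenic 1. IL7R, which was not tested, had 1, 3, 2 and 84. CD3D, CD3E and CD3G, which define T cells, had 0 to 2 counts in every library, GZMA and PRF1 were at 0 in all 4, and the summed level was 5.03, 6.95, 6.32 and 12.7 CPM in wild type 1 and 2 and transgenic 1 and 2. Of the 5 B and plasma cell markers 1 was tested, and their sum was 4.92 to 6.11 CPM. The 4 blood markers in the table, of 7 listed, summed to 30.4, 12.9, 11.7 and 248 CPM, of which the neutrophil and monocyte genes S100A9 and S100A8 made up 205 and 32.4 CPM in transgenic 2. LYZ, another myeloid gene of this list, was lowest there (14.9, 11.3, 11.0 and 4.65 CPM), and the red cell gene ALAS2 had 187, 14, 7 and 110 counts. Perivascular and meningeal markers (9 genes) summed to 231 and 301 CPM in the wild-type pair, against 345 and 245 CPM in transgenic 1 and 2. The part of these cell types and of sequencing depth in the higher class I values of transgenic 2 was not tested. In bulk tissue, fewer cells of a type and less RNA per cell cannot be told apart.

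**Figure D5:**
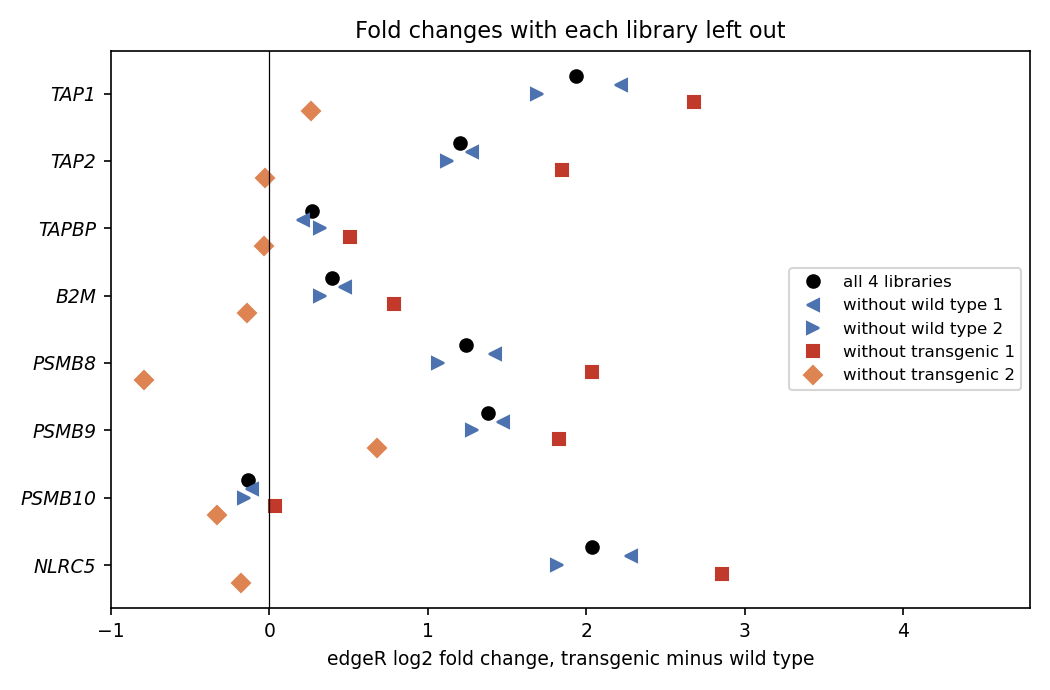
Fitted log2 fold change (edgeR, transgenic minus wild type) of each of the 8 genes with all 4 libraries and with each library left out. Without transgenic 2 the values run from -0.79 to 0.68, and without transgenic 1 from 0.034 to 2.86.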

How the data were processed

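Per the labels' protocols, RNeasy Mini columns and KAPA Hyper reagents served for RNA and libraries. The deposited values are raw counts of reads for each gene symbol and library. STAR 2.5.3a, kallisto 0.46.2 and featureCounts 1.5.2 appear in the submitters' processing notes with no role stated. The build and the annotation were not given in the sources used here.

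In R 4.3.3, genes were kept with filterByExpr, scaled by TMM and tested with edgeR 4.0.16 (quasi-likelihood) on genotype alone (2 residual degrees of freedom; coefficient of variation 24.5%) and Benjamini-Hochberg adjustment over all genes kept. The SE was derived from the fold change and its F statistic. Deviations use log2 CPM with a prior count of 2. Alternatives were DESeq2 1.42.0, limma-voom (limma 3.58.1), RLE scaling, no scaling, other filters, replicate blocks and each library left out. The steps were tested on simulated data. No library repeated another (chi-square per degree of freedom 5.81 to 34.9).

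The 8 genes and the lists were chosen with earlier results of these data known. Named genes are the 8, their constitutive counterparts, a fixed set of partners and regulators, CAJA- class I genes with a symbol, and the 3 genes per list with the smallest p; the result of 1 gene that met this rule is not reported here. The 5 genes most alike in pattern needed a mean count of 20. Of the 18 interferon-γ-induced and 15 interferon signalling entries, those that did not match by symbol were not analysed here.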

Additional observations from a re-analysis of the deposited data

How the results depend on the processing

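The number of genes called by edgeR was 0 with all libraries, 5 with no low-count filter, 48 with DESeq2, and 0 to 1710 with 1 library left out. For the 8 class I genes the leave-one-out ranges of the log2 fold change were -0.14 to 0.79 for B2M, 0.26 to 2.68 for TAP1, -0.030 to 1.85 for TAP2, -0.033 to 0.51 for TAPBP, -0.79 to 2.04 for PSMB8, 0.68 to 1.83 for PSMB9, -0.33 to 0.034 for PSMB10 and -0.18 to 2.86 for NLRC5. The lowest value came without transgenic 2 and the highest without transgenic 1 in each of the 8. The sign turned for B2M, TAP2, TAPBP, PSMB8 and NLRC5 without transgenic 2, and for PSMB10 without transgenic 1. The median over the 8 genes was 1.22 and ranged from -0.087 to 1.84 with a library left out. Under the other 8 alternatives no direction or call of the 8 genes changed, with the median between 0.83 and 1.24. PSMB9 was not fitted at a mean count of at least 50. The leave-one-out ranges of the log2 subunit ratio difference were -0.68 to 1.97 for PSMB8/PSMB5, 0.86 to 1.54 for PSMB9/PSMB6 and -0.22 to -0.077 for PSMB10/PSMB7, and the offset of 0.5 changed none of them by more than the spread between replicates. With the replicate number as a block, edgeR called 0 genes and 826 had an unadjusted p under 0.05, against 921 without it. The numbers are only names in the labels. Over genes, the log2 CPM difference of transgenic 1 and 2 correlated at -0.137 with that of wild type 1 and 2. A crossed replicate block, chosen after seeing the data, called 0 genes, with 858 at an unadjusted p under 0.05. Of 96 values of the 8 pathway list medians under the alternatives, 83 moved by less than the spread between replicates and 13 by more, 11 of these with a library left out; the sign turned in 7, 6 with a library left out and 1 for the peptidases with library totals. Depth limits PSMB9, NLRC5 and PSMB8 most, which had 11 to 56, 19 to 218 and 21 to 199 counts.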
